A study of Homo sapiens and Mus musculus with 47 samples.

Results

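LINC00662, a long intergenic noncoding RNA gene on the long arm of human chromosome 19, was examined together with the 6 protein-coding genes that lie nearest to it: UQCRFS1, VSTM2B, POP4, PLEKHF1, C19orf12 and CCNE1. The members were taken by gene name, and all 7 were found among the 57820 genes of the human count tables. The measurements were RNA read counts from HEK293T cells given antisense oligonucleotides (ASOs), from HEK293T cells with a CBX7 chromatin reader, and from HCT116 cells with a TAF3 chromatin reader. Levels are given as CPM, read counts relative to the library total with TMM scaling, a factor that balances libraries, and fold changes as log2 values from the quasi-likelihood test of edgeR.

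Long noncoding RNAs can act near their site of transcription, in cis, on neighbouring genes, or elsewhere in the nucleus and cytoplasm, in trans. An ASO is a short synthetic strand that pairs with a chosen RNA, and many ASOs direct the cleavage of that RNA by RNase H. Because one transfected ASO can also change RNAs without a site for it, ASOs against other RNAs are a useful second comparison beside a control ASO.

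HEK293T is a human embryonic kidney line that carries the SV40 large T antigen, and HCT116 is a human colon carcinoma line. In the ASO experiment HEK293T cells received the control ASO (3 libraries), an ASO against LINC00662 (3 libraries), an ASO against the antisense long noncoding RNA SETD5-AS1 (3 libraries) or an ASO against the long noncoding RNA LINC00641 (2 libraries). A second table held HEK293T RNA-seq with the reader CBX7, whose chromodomain binds H3K27me3, and a Control group, of which the labels say nothing more (3 libraries each). The study sets the RNA of cells transfected with CBX7 beside that of untreated HEK293T cells. If these untreated cells are the Control group, effects of transfection and of the reader cannot be told apart. The last table held HCT116 Chrom-seq, in which TAF3, whose PHD finger binds H3K4me3, brings the peroxidase APEX2 to the mark so that nearby RNA is biotinylated and pulled down, and the control cells lacked a reader (3 libraries each). These 23 libraries are part of the 47 samples of the series. The labels do not say whether replicates were separate cultures, so the tests measure only the spread between these libraries. In bulk RNA, fewer cells that express a gene and less of its RNA per cell cannot be told apart.

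Totals were 11619315 to 15023098 counts in the 11 ASO libraries, 8258859 to 15330874 in the 6 CBX7 RNA-seq libraries and 14213105 to 17445889 in the 6 HCT116 libraries. Markers of the lines followed the labels in part. EPCAM stood at 348 ± 7.44 CPM in HCT116 control cells (SD, n = 3) and at group means of 8.1 to 21.7 CPM in the ASO libraries, whereas the neurofilament gene NEFL was at 0 in HCT116 control cells and at 185 to 283 CPM in the ASO groups. PAX2, also listed for HEK293T, did not follow its label, at 11.5 CPM in HCT116 control cells and 5.26 to 9.11 CPM in the ASO groups. The intestinal genes CDX1, LGALS4 and VIL1 were near 0 in both lines, and CDX2 was higher in HEK293T than in HCT116, so these genes did not mark HCT116. The blood cell genes PTPRC and CD3E were at or near 0.

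The sequences of the LINC00662 ASOs are shown first, because their sites decide which RNAs they can pair with. The study designed 3 ASOs of 20 bases against LINC00662 and used ASOXNC23 as the control ASO. Which of the 3, or which mixture, the RNA-seq cells received is not given in the sources used here. The first and the last of the 3 and the control ASO read, from 5′ to 3′:
LINC00662-ASO-1: tgtagtctcttatctgcacc
LINC00662-ASO-3: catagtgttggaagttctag
ASOXNC23: ttctccgaacgtgtcacgtt

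Both LINC00662 ASOs shown were searched exactly against the spliced GENCODE v44 transcripts lifted to GRCh37, the assembly of hg19. They matched spliced transcripts of 1 gene only, LINC00662 itself. That search did not cover introns, so it does not show that they can pair with LINC00662 RNA alone. Their sites follow in the sense of the LINC00662 RNA, with the paired bases in capitals and 20 bases on each side:
LINC00662-ASO-1 site: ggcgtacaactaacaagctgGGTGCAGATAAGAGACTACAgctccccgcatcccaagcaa
LINC00662-ASO-3 site: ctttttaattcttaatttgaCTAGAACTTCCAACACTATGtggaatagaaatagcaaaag

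The ASO-1 site lay at chr19:28284662-28284681, 232 bp from the start of the gene in GENCODE v44, which is at chr19:28284913. It was in exon 1 of 40 of the 80 annotated LINC00662 transcripts and was the only exact match in the genome. The ASO-1 site is also within the span of LINC02987 on the opposite strand. The ASO-3 site within the gene lay at chr19:28281738-28281757, in an exon of 3 of the 80 transcripts, but the same 20 bases occurred 112 times in the genome. A match at chr19:35108608-35108627 lay within the span of SCGB2B2. Matches on other chromosomes were not assigned to genes. Neither ASO matched within the spans of the other 6 genes, and ASOXNC23 had 0 exact matches in the genome and in the transcripts.

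In the hg19 annotation of the count tables, which differs from GENCODE v44, LINC00662 (ENSG00000261824.2) spans chr19:28175488-28284848 on the minus strand. A gene-poor interval of 1.41 Mb separates it from UQCRFS1 (ENSG00000169021.4, chr19:29698173-29704448, minus strand). VSTM2B (ENSG00000187135.7, chr19:30017406-30055386, plus strand) is 1.73 Mb away, POP4 (ENSG00000105171.5, chr19:30094924-30108144, plus strand) 1.81 Mb, PLEKHF1 (ENSG00000166289.5, chr19:30155963-30166364, plus strand) 1.87 Mb, C19orf12 (ENSG00000131943.13, chr19:30191721-30206364, minus strand) 1.91 Mb and CCNE1 (ENSG00000105173.9, chr19:30302805-30315215, plus strand) 2.02 Mb. Of the 55 annotated genes with any base within 3 Mb of LINC00662, 8 are protein coding. They are the 6 neighbours, URI1 at 2.13 Mb and ZNF536 at 2.43 Mb. Of the genes that overlap LINC00662, CTC-459F4.1, CTC-459F4.3 and LLNLF-65H9.1, none had a read in the libraries used. How reads shared by overlapping genes were counted is not given in the sources used here, so this does not show that these genes were silent.

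Across the ASO libraries, LINC00662 fell with its own ASO, VSTM2B rose with the LINC00662 ASO and with the SETD5-AS1 ASO, and the other 5 genes passed the full call in none of the ASO comparisons. A gene was called at an edgeR adjusted p under 0.05 with a log2 fold change of 0.75 or more in either direction. Against the control ASO, 2 of the 7 genes were called with the LINC00662 ASO (1 higher and 1 lower), where 24.9% of all tested genes were called. The counts were 1 of 7 with the SETD5-AS1 ASO (24.4% of all tested genes) and 0 of 7 with the LINC00641 ASO (22.5%). By adjusted p alone, 4 of 7 passed with the LINC00662 ASO (54.4% of all tested genes), 3 of 7 with the SETD5-AS1 ASO (52.7%) and 3 of 7 with the LINC00641 ASO (49.7%). LINC00662 is the target of its own ASO. Of the 6 neighbours, 1 was called with that ASO and 3 passed by adjusted p alone. In none of these counts did the members exceed the share of all genes by more than 1 gene. The 3 comparisons share the same 3 control ASO libraries, so their values are set side by side and not counted as independent.

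LINC00662, the targeted RNA, stood at 12.5, 14.3 and 13.3 CPM in the control ASO libraries and at 1.97, 1.23 and 1.53 CPM in the LINC00662 ASO libraries. The groups did not overlap, and all 3 LINC00662 ASO libraries were far below every other library, with 18 to 30 reads each. The mean fell from 13.4 ± 0.93 to 1.58 ± 0.374 CPM (SD, n = 3 each), which left 11.8% of the control. This is a log2 fold change of -3.00 (standard error 0.195, 95% interval -3.4 to -2.6, edgeR adjusted p = 1.04e-12). With the SETD5-AS1 ASO the levels were 19.4, 15.1 and 19.6 CPM, and with the LINC00641 ASO 18.2 and 15.3 CPM. All 5 of these libraries lay above the 3 control ASO libraries, by log2 fold changes of 0.44 (edgeR adjusted p = 0.00816) and 0.34 (edgeR adjusted p = 0.0437), both under the fold needed for a call. Over the alternatives the adjusted p of the LINC00641 ASO value ranged from 0.0156 to 0.357.

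VSTM2B encodes a membrane protein with an immunoglobulin V-set domain. It had 1.55, 2.43 and 2.43 CPM with the control ASO, and 8.35, 11.1 and 10.9 CPM with the LINC00662 ASO. The SETD5-AS1 ASO libraries had 10.3, 8.1 and 7.15 CPM and the LINC00641 ASO libraries 3.44 and 3.49 CPM. The control ASO libraries were the lowest of all 11 and did not overlap with any other group. The LINC00662 and SETD5-AS1 ASO libraries overlapped with each other, and both LINC00641 ASO libraries lay between them and the control. These levels rest on 20 to 28 reads per control library and on 127 to 162 reads per LINC00662 ASO library.

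Against the control ASO, VSTM2B rose by a log2 fold change of 2.32 with the LINC00662 ASO (standard error 0.209, 95% interval 1.89 to 2.75, edgeR adjusted p = 4.96e-10). It rose by 2.01 with the SETD5-AS1 ASO (standard error 0.228, interval 1.53 to 2.49, edgeR adjusted p = 9.07e-07). With the LINC00641 ASO its log2 fold change was 0.72, with an interval of 0.11 to 1.33 (edgeR adjusted p = 0.0471), under the fold needed for a call. That value was called with library totals as the only scaling (0.80) and without control ASO replicate 2 (0.82), and its adjusted p was 0.205 with the replicate block. The antisense gene CTC-525D6.2 overlaps VSTM2B and had 0 to 3 reads per ASO library, and its part in the VSTM2B reads was not tested.

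POP4 encodes a protein subunit shared by RNase P, which trims the 5′ end of precursor tRNAs, and RNase MRP, which acts on ribosomal RNA precursors. Its levels were 61.7, 65.9 and 55 CPM with the control ASO and 39.3, 42.9 and 39.9 CPM with the LINC00662 ASO. The SETD5-AS1 ASO libraries were at 49.1, 48.3 and 55.2 CPM and the LINC00641 ASO libraries at 43.9 and 47.9 CPM. The LINC00662 ASO libraries were the lowest and the control ASO libraries the highest, apart from an overlap of 1 control library with 1 SETD5-AS1 ASO library. The log2 fold change against the control ASO was -0.51 with the LINC00662 ASO (standard error 0.0834, edgeR adjusted p = 8.85e-06), -0.25 with the SETD5-AS1 ASO (edgeR adjusted p = 0.0234) and -0.39 with the LINC00641 ASO (edgeR adjusted p = 0.00237). All 3 were below 0 and none reached the fold needed for a call, and the SETD5-AS1 value did not keep its adjusted p under every alternative, which ranged from 0.0082 to 0.298.

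UQCRFS1 encodes the Rieske iron-sulfur protein of respiratory complex III. Its 3 control ASO libraries were at 65.7, 45.2 and 163 CPM, a wider spread than in any other group, against 124, 131 and 135 CPM with the LINC00662 ASO. The SETD5-AS1 ASO libraries were at 103, 115 and 96.8 CPM and the LINC00641 ASO libraries at 118 and 122 CPM. Control ASO replicate 3 was above all other libraries and replicates 1 and 2 below all others, so the control overlapped with every group. The log2 fold change with the LINC00662 ASO was 0.57, with a 95% interval of 0.1 to 1.05 (edgeR adjusted p = 0.0373), and DESeq2 gave an adjusted p of 0.417. Leaving out control ASO replicate 3 moved it to 1.29 (edgeR adjusted p = 1.99e-09), and moved the values for the SETD5-AS1 and LINC00641 ASOs from 0.20 to 0.92 and from 0.41 to 1.11. Without control ASO replicate 2 the LINC00662 ASO value was 0.25 (edgeR adjusted p = 0.212), and without replicate 1 it was 0.38 (edgeR adjusted p = 0.184). The size and the call of this UQCRFS1 comparison changed with which single control library was left out.

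The pseudogene UQCRFS1P1, which can share reads with UQCRFS1, had 17, 1 and 40 reads in the control ASO libraries and 39 to 56 reads with the LINC00662 ASO. Its order over the control libraries was that of UQCRFS1. Its call against the control ASO (log2 fold change 1.09, edgeR adjusted p = 0.0379) was lost in 6 of 13 alternatives. The noncoding gene CTB-32O4.2, which overlaps UQCRFS1 on the opposite strand, had 1 to 13 reads per ASO library and was called higher with the SETD5-AS1 ASO than with the control ASO (log2 fold change 1.77, edgeR adjusted p = 0.0243), from 8 to 13 reads against 1 to 4.

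The remaining genes were PLEKHF1, which encodes a phosphoinositide-binding protein of endosomes and lysosomes, C19orf12, which encodes a membrane protein of mitochondria and the endoplasmic reticulum, and CCNE1, which encodes cyclin E1, the partner of CDK2 at entry into S phase. PLEKHF1 ranged from 2.63 to 5.68 CPM over the 11 libraries, C19orf12 from 13.7 to 19.1 CPM and CCNE1 from 26.4 to 34.7 CPM. With the LINC00662 ASO their log2 fold changes were 0.11 (95% interval -0.38 to 0.59), 0.04 (-0.19 to 0.27) and 0.23 (0.02 to 0.43), and the edgeR adjusted p were 0.725, 0.797 and 0.0554. In each case the LINC00662 ASO libraries overlapped with the control libraries. The intervals for all 3 genes leave out a change of 0.75 in either direction.

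**Figure D1:**
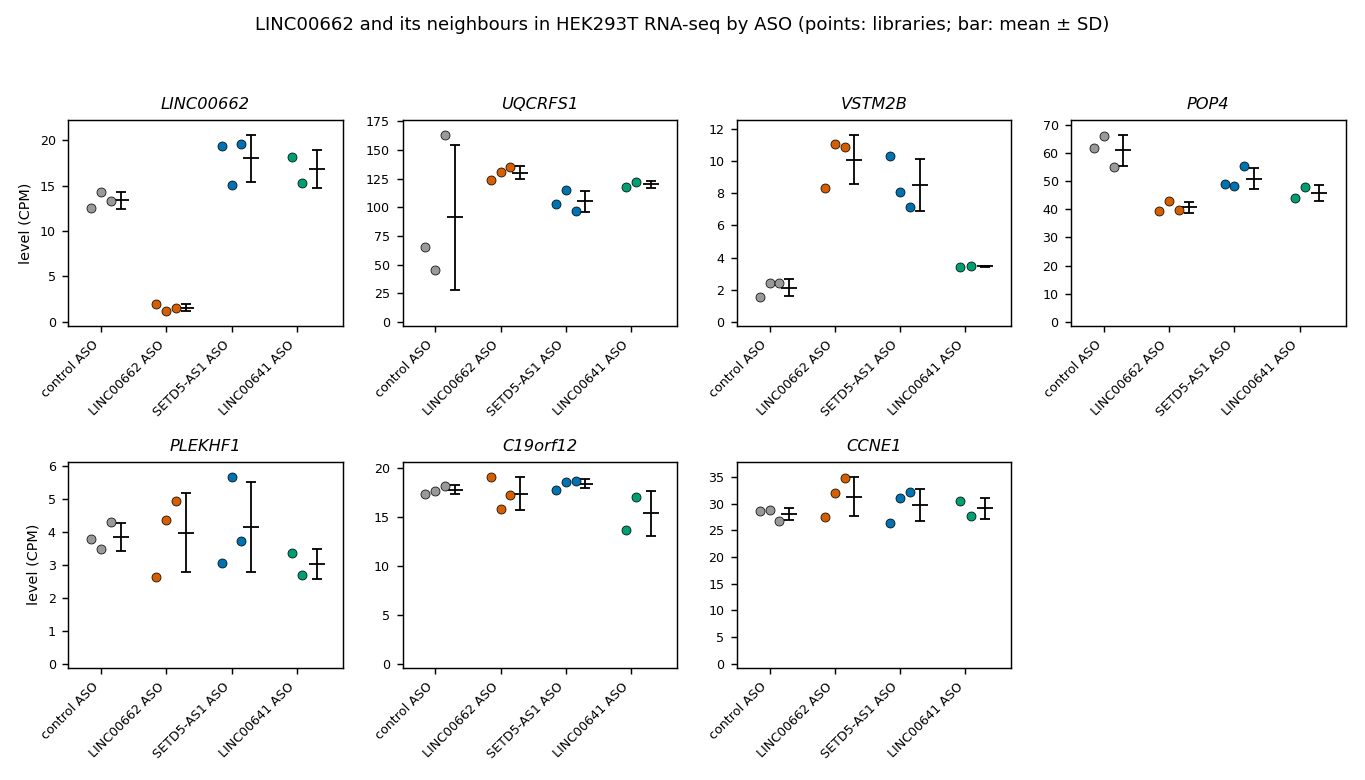
Level in CPM (y axis, starting near 0, own scale for each gene) of the 7 genes in each HEK293T library of the control, LINC00662, SETD5-AS1 and LINC00641 ASO groups; points are libraries and bars the mean ± SD (n = 3, and n = 2 with the LINC00641 ASO). LINC00662 is at 1.23 to 1.97 CPM only with its own ASO, VSTM2B is above the control with all 3 targeting ASOs, and the UQCRFS1 control libraries run from 45.2 to 163 CPM.

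The comparison of the LINC00662 ASO with the 5 libraries of the other targeting ASOs asks whether a neighbour differed with this ASO beyond what the others showed, and it uses no control ASO library. Here 2 of the 7 genes were called, LINC00662 and VSTM2B, where 9.7% of all tested genes were called. By adjusted p alone 4 of 7 passed, where 32.6% of all tested genes did. These counts include LINC00662, the target of the ASO. Without it, 1 of the 6 neighbours was called and 3 passed by adjusted p alone. LINC00662 had a log2 value of -3.44 (standard error 0.178, 95% interval -3.82 to -3.07, edgeR adjusted p = 2.02e-11). VSTM2B was higher by 0.90 (standard error 0.154, interval 0.57 to 1.22, edgeR adjusted p = 0.000178), although its groups overlapped. UQCRFS1 was higher by 0.21 (interval 0.07 to 0.35, edgeR adjusted p = 0.0184) and POP4 lower by -0.24 (interval -0.4 to -0.09, edgeR adjusted p = 0.0154), both without overlap and both short of the fold needed for a call. PLEKHF1, C19orf12 and CCNE1 had log2 fold changes of 0.16, 0.05 and 0.09 (edgeR adjusted p = 0.654, 0.726 and 0.492).

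Split by partner, in contrasts chosen after seeing the data, the VSTM2B difference rested on the LINC00641 ASO. Against the LINC00641 ASO alone the VSTM2B log2 fold change was 1.54 (95% interval 1.11 to 1.98, edgeR adjusted p = 1.73e-05), and against the SETD5-AS1 ASO alone it was 0.25 (interval -0.09 to 0.59, edgeR adjusted p = 0.256). LINC00662 differed from both, by -3.39 and -3.50. Same-numbered libraries of the LINC00662 and SETD5-AS1 ASOs deviated together in all 3 pairs, and with the replicate number as a block the VSTM2B value against the SETD5-AS1 ASO was 0.25 (edgeR adjusted p = 0.263). Of the 7 genes, VSTM2B and the target LINC00662 were called against the LINC00641 ASO (8.29% of all tested genes). The target LINC00662 alone was called against the SETD5-AS1 ASO (11.2%). UQCRFS1 was higher than with the SETD5-AS1 ASO by 0.31 (edgeR adjusted p = 0.00327) and POP4 lower by -0.32 (edgeR adjusted p = 0.00518). Against the LINC00641 ASO their values were 0.12 and -0.17 (edgeR adjusted p = 0.35 and 0.197).

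**Figure D2:**
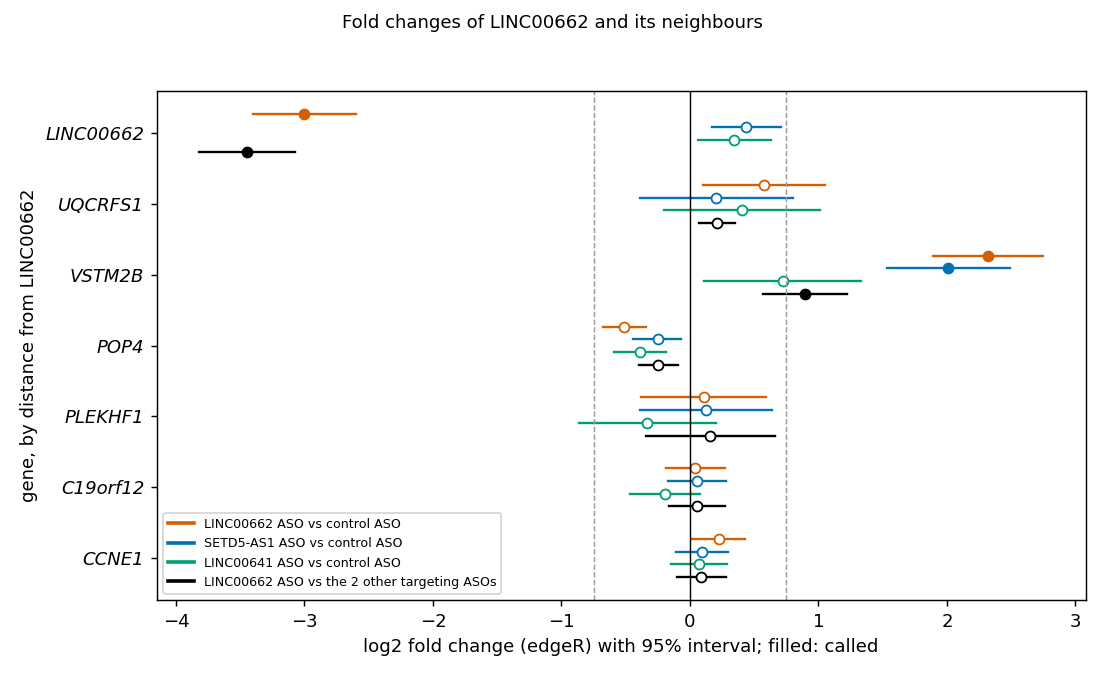
Log2 fold change from edgeR (x axis) with its 95% interval for the 7 genes, ordered by distance from LINC00662 (y axis), in 4 comparisons shown by colour; filled points were called and dashed lines mark 0.75 in either direction. LINC00662 lies near -3 in the comparisons of its own ASO, VSTM2B is at 2.32 and 2.01 with the LINC00662 and SETD5-AS1 ASOs against the control, and the intervals of C19orf12 and CCNE1 stay within the dashed lines.

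The rest of the 3 Mb window was then read by the same rule. Of the 54 other genes in the window, 11 had enough reads to be tested, 6 of them the neighbours above. Among the 11, 2 were higher and 1 was lower with the LINC00662 ASO against the control ASO, a share of 27.3% beside 24.9% for all genes, and their median log2 fold change was 0.11. Against the same control, the SETD5-AS1 ASO gave a share of 45.5% (4 higher and 1 lower) beside 24.4% for all genes, and the LINC00641 ASO one of 27.3% beside 22.5%. The LINC00662 ASO against the other targeting ASOs gave 18.2% beside 9.7%. The share in the window was thus above that of all genes by less than 1 gene with the LINC00662 and LINC00641 ASOs and by 2 to 3 genes with the SETD5-AS1 ASO.

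Apart from VSTM2B, the genes called in the window with the LINC00662 ASO were SLC25A1P5 and ZNF536. SLC25A1P5, a pseudogene 0.01 Mb from LINC00662, had 44, 40 and 30 reads with the control ASO, 13, 10 and 15 with the LINC00662 ASO, 8, 16 and 9 for SETD5-AS1 and 16 and 18 for LINC00641. It fell in all 3 comparisons, by 1.79, 1.86 and 1.33 on the log2 scale (edgeR adjusted p = 2.67e-05 with the LINC00662 ASO), and its reads can come from the parent gene SLC25A1. ZNF536, which encodes a zinc finger repressor, had 10.2 ± 2.04 CPM with the control ASO (SD, n = 3) and 20.3 ± 3.49, 20.7 ± 2.31 (n = 3 each) and 22.4 ± 0.488 CPM (n = 2) with the LINC00662, SETD5-AS1 and LINC00641 ASOs. All 3 groups lay above the control, by log2 fold changes of 1.06, 1.03 and 1.15 (edgeR adjusted p = 6.73e-07 for the LINC00662 ASO).

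AC005307.3, a long intergenic noncoding RNA gene 0.64 Mb from LINC00662, followed another order. It had 9, 9 and 6 reads with the control ASO and 11, 8 and 9 with the LINC00662 ASO, but 31, 35 and 32 for SETD5-AS1 and 35 and 32 for LINC00641. The LINC00662 ASO libraries overlapped with the control libraries and lay below all 5 libraries of the other targeting ASOs. Its log2 fold change was -1.96 against the other targeting ASOs (standard error 0.294, edgeR adjusted p = 4.26e-05) and close to 0 against the control ASO (edgeR adjusted p = 0.998). URI1, which encodes a prefoldin-like chaperone subunit, had a log2 fold change of 0.08 against the control ASO (edgeR adjusted p = 0.357).

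**Figure D3:**
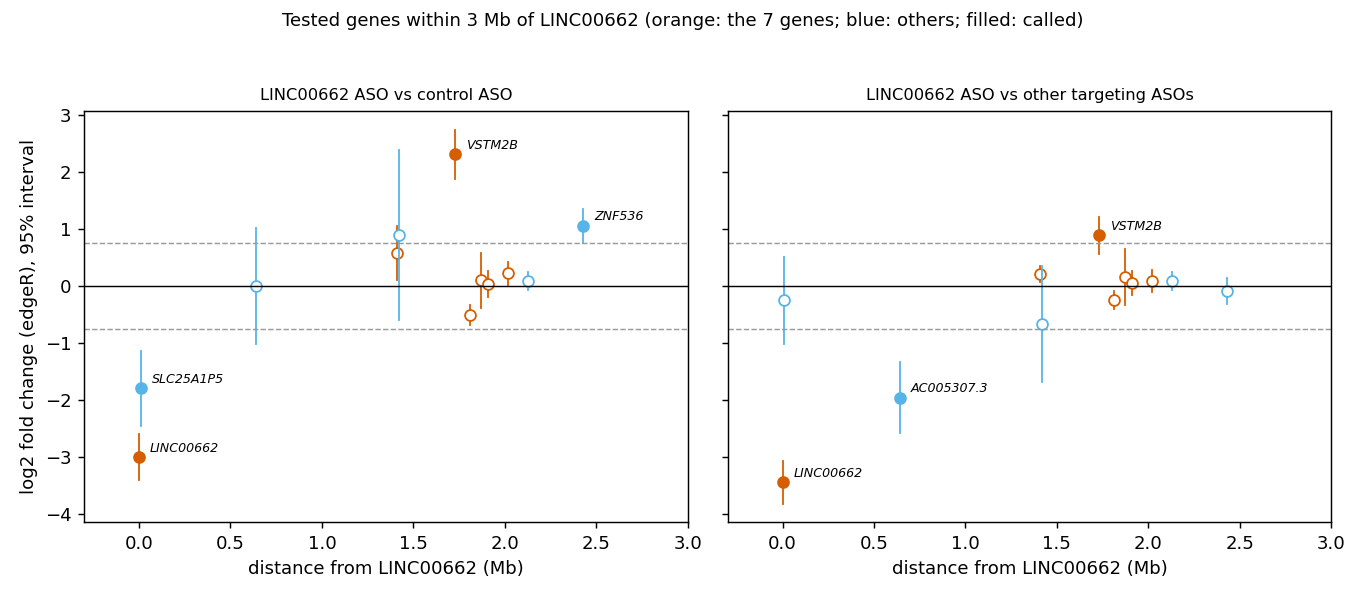
Log2 fold change from edgeR with its 95% interval (y axis) against distance from LINC00662 in Mb (x axis) for the tested genes within 3 Mb; the left panel compares the LINC00662 ASO with the control ASO and the right panel with the other targeting ASOs, orange marks the 7 genes, blue the others, and filled points were called. SLC25A1P5 and ZNF536 are called on the left only, AC005307.3 on the right only, and LINC00662 and VSTM2B in both.

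Several of these genes also set the control ASO libraries apart from the RNA-seq control libraries of the same cell line. The RNA-seq control libraries were normalized separately and may come from untreated cells, so the values are given without a test. VSTM2B had 2.14 CPM on average with the control ASO and 8.14 CPM in the RNA-seq control, ZNF536 10.2 and 27.9 CPM, and POP4 60.9 and 44.4 CPM. In each of the 3 genes the LINC00662 ASO libraries lay nearer to the RNA-seq control than the control ASO libraries did, at 10.1, 20.3 and 40.7 CPM. All 3 genes had already differed between the LINC00662 ASO and the same control ASO libraries, so this order follows in part from their choice. AC005307.3 was different, with 0.673 CPM with the control ASO, 0.642 CPM with the LINC00662 ASO and 2.52 CPM in the RNA-seq control. SETD5-AS1, the target of another ASO, had 53.3 CPM with the control ASO, 28.5 with the LINC00662 ASO, 29.8 with the LINC00641 ASO and 30.5 in the RNA-seq control. LINC00662 itself had 13.4 CPM with the control ASO and 12.1 CPM in the RNA-seq control. In the same order CCNE1 had 28.1 and 28.7 CPM, C19orf12 17.8 and 16.2, PLEKHF1 3.86 and 4.6, and UQCRFS1 91.4 and 110. The part of the control ASO in the fold changes against it was not tested.

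The partners of the neighbours were read from lists of genes that work with them. Among 13 tested genes of complex III, 1 was higher and 1 lower with the LINC00662 ASO against the control ASO, with a median log2 fold change of -0.10 beside 0.001 for all genes. This count of 2 of 13 lies below the 24.9% of all tested genes called. These were UQCC1 (1.07, edgeR adjusted p = 5.83e-12) and BCS1L (-1.20, edgeR adjusted p = 4.53e-13), both assembly factors of the complex. BCS1L was also lower in the SETD5-AS1 (-1.34) and LINC00641 (-1.37) comparisons. UQCC1 was at 0.65 and 0.57 there, short of a call (edgeR adjusted p = 7.49e-06 and 2.44e-05). Against the other targeting ASOs 0 of the 13 were called, where 9.7% of all tested genes were.

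Among 10 tested subunits of RNase P and RNase MRP, the complexes of POP4, 0 were higher and 2 lower with the LINC00662 ASO against the control ASO, with a median of -0.20. A count of 2 of 10 is near the 24.9% of all tested genes. The 2 were RPP40 (-1.42) and POP5 (-0.83). RPP40 was also lower in the SETD5-AS1 (-1.37) and LINC00641 (-1.32) comparisons. POP5 was at -0.47 and -0.50 there, under the fold needed for a call (edgeR adjusted p = 0.000279 and 0.000284). POP7 was called lower in both (-0.82 and -0.88) and was at -0.68 with the LINC00662 ASO, not called. The POP7 call with the SETD5-AS1 ASO was lost in 1 of 13 alternatives. Against the other targeting ASOs 0 of the 10 were called, beside 9.7% of all tested genes. With the SETD5-AS1 ASO 2 of 10 were higher, the RNA subunits RPPH1 (3.06) and RMRP (2.99), and 2 were lower. Over all tested genes 24.4% were called there and 12.9% were higher. The RMRP libraries of the 2 groups overlapped. Over the alternatives RPPH1 ranged from 1.45 to 3.55 and RMRP from 1.04 to 3.50. With the LINC00641 ASO 1 of 10 was higher, RPPH1 (1.61), and 2 were lower. Over all tested genes 22.5% were called there, and the RPPH1 call was lost in 2 of 12 alternatives. The study selected RNA with a poly(A) tail for its RNA-seq, and the part of that selection in the RPPH1 and RMRP values was not tested.

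Among 21 tested cyclins, kinases and regulators of the G1/S step, to which CCNE1 belongs, 3 were higher and 1 lower with the LINC00662 ASO against the control ASO, with a median of -0.08 and a count of 4 of 21 that lies below the 24.9% of all tested genes. RBL2 (1.20), a pocket protein, and CDK6 (0.99) and CCND2 (0.85), a kinase and a cyclin of G1, were higher, and the inhibitor CDKN2D (-0.88) was lower. With the SETD5-AS1 and LINC00641 ASOs, RBL2 (1.11 and 0.80), CDK6 (0.87 and 0.82) and CDKN2D (-1.41 and -1.29) were called in the same directions. The RBL2 and CDK6 calls with the LINC00641 ASO were lost in 4 and 1 of 12 alternatives. CCND2 was at 0.72 and 0.95, the first short of a call. Against the other targeting ASOs 1 of the 21 was called, beside 9.7% of all tested genes. This was SKP2, which was lower. The list moved in both directions in these comparisons.

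The study asked about LINC00662 and the repressive mark H3K9me3, so writers and readers of that mark were listed as well. Among 11 tested H3K9 methyltransferases and HP1-linked genes, 1 was higher and 1 lower with the LINC00662 ASO against the control ASO, EHMT1 (1.15) and TRIM28 (-0.89). The count of 2 of 11 lies below the 24.9% of all tested genes. Both were also called in the same directions with the SETD5-AS1 and LINC00641 ASOs, although the EHMT1 call with the SETD5-AS1 ASO (0.76) was lost in 4 of 13 alternatives. The counts there were again 2 of 11, beside 24.4% and 22.5% of all tested genes. Against the other targeting ASOs 0 of the 11 were called, beside 9.7% of all tested genes, with a median of 0. Of 3 paralogs of the neighbours, VSTM2A, the paralog of VSTM2B, was called. It had 7, 4 and 1 reads with the control ASO, 24, 27 and 16 with the LINC00662 ASO, 11, 9 and 8 for SETD5-AS1 and 11 and 9 for LINC00641. The LINC00662 ASO libraries were the highest of the 11. Its log2 fold change was 2.23 against the control ASO (edgeR adjusted p = 0.000501) and 1.05 against the other targeting ASOs (edgeR adjusted p = 0.0235), and the second call was lost in 5 of 18 alternatives.

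The genes whose profile over the 4 ASO group means was nearest to that of LINC00662 were WDR41 on chromosome 5, COL4A5 on chromosome X and KIAA1009 on chromosome 6. Likeness was the root mean square difference of the centred log2 levels, among 14278 genes with enough reads, and it was 0.1, 0.122 and 0.131 for the 3 genes. Ranked over the 11 single libraries from which the group means were taken, the nearest were the same 3 genes. WDR41 had means of 87.8, 13.9, 97 and 107 CPM with the control, LINC00662, SETD5-AS1 and LINC00641 ASOs. COL4A5 had 55.6, 8.82, 83 and 61.1 CPM, and KIAA1009 had 29.7, 6.05, 42.7 and 40.8 CPM in the same order. All 3 were lowest with the LINC00662 ASO, which follows from their selection by likeness to LINC00662. None lies on chromosome 19, and these levels are a description with no test.

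In HEK293T cells with the CBX7 reader, VSTM2B was lower and POP4 higher than in the RNA-seq control. Of the 7 genes 1 was called, where 7.66% of all tested genes were called, and 2 passed by adjusted p alone, where 29.2% of all tested genes did. VSTM2B had 7.63, 6.76 and 10 CPM in the control and 3.72, 4.06 and 3 CPM with CBX7, from 92, 95 and 155 reads and 31, 45 and 31 reads. The groups did not overlap. VSTM2B thus had a log2 fold change of -1.18 (standard error 0.208, 95% interval -1.62 to -0.74, edgeR adjusted p = 0.000551).

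POP4 had 39.2, 49.6 and 44.4 CPM in the RNA-seq control and 62.7, 67 and 63.9 CPM with CBX7, again without overlap. Its log2 fold change was 0.54 (interval 0.34 to 0.74, edgeR adjusted p = 0.000479), short of the fold needed for a call. LINC00662 had 14.2, 9.68 and 12.3 CPM in the control and 18.9, 15.3 and 13.6 CPM with CBX7, and 1 control library overlapped with the CBX7 group. Its log2 fold change was 0.40 (interval 0.06 to 0.73, edgeR adjusted p = 0.0705), and the adjusted p was 0.019 with the replicate number as a block.

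UQCRFS1 (0.02), C19orf12 (-0.22), CCNE1 (0.01) and PLEKHF1 (-0.51) were not called with CBX7 (edgeR adjusted p = 0.877, 0.217, 0.965 and 0.197). PLEKHF1 had 2.04, 4.97 and 2.51 CPM with CBX7, and without the high CBX7 replicate 2 its value was -1.01 (edgeR adjusted p = 0.019). The UQCRFS1 control libraries, at 102 to 120 CPM, did not have the spread seen with the control ASO. In the partner lists, RPP40 (0.95) and CDKN2D (1.19) were higher with CBX7, and 0 of the 13 complex III genes and 0 of the 11 H3K9 genes were called. Over all tested genes 7.66% were called.

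In HCT116 Chrom-seq 6 of the 7 genes had enough reads to be tested, and VSTM2B was the exception, with 1, 0 and 2 reads in the reader-free control and 0 in all 3 TAF3 libraries. Chrom-seq with TAF3 compares RNA recovered near H3K4me3, a mark of active promoters, with RNA recovered without a reader, so its fold changes measure recovery. Of the 6 tested genes 0 were called, where 6.64% of all tested genes were called, and 4 passed by adjusted p alone, where 34.9% of all tested genes did. CCNE1 had 22.4, 21.8 and 22.1 CPM in the control and 33.6, 34.1 and 29.6 CPM with TAF3. These groups did not overlap. CCNE1 thus had a log2 fold change of 0.55 (standard error 0.0886, 95% interval 0.38 to 0.73, edgeR adjusted p = 1.73e-06).

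POP4 had 23.3, 27.3 and 24.2 CPM in the HCT116 control and 32.4, 36.8 and 34.2 CPM with TAF3, without overlap, at a log2 fold change of 0.47 (interval 0.29 to 0.64, edgeR adjusted p = 2.9e-05). UQCRFS1 was at 0.19 (edgeR adjusted p = 0.0392). LINC00662 ran the other way, with 28.5, 38.6 and 37.6 CPM in the control and 29.8, 26.8 and 28.1 CPM with TAF3. Control replicate 1 overlapped with the TAF3 libraries, and the LINC00662 log2 fold change was -0.31 (interval -0.49 to -0.12, edgeR adjusted p = 0.00731). PLEKHF1 and C19orf12 were at -0.09 and -0.14 (edgeR adjusted p = 0.826 and 0.414).

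Among the partner lists in HCT116, 3 of 10 RNase P and RNase MRP genes were higher with TAF3 and none lower, with a median of 0.42 beside -0.005 for all genes. These were RMRP (4.67, standard error 0.529), RPPH1 (3.42, standard error 0.82) and POP1 (1.05, standard error 0.0738). RMRP and RPPH1 are the RNA subunits, so POP1 was the only protein subunit called. The study selected RNA with a poly(A) tail for its libraries, and the part of that selection in the RMRP and RPPH1 values was not tested. Over all tested genes 6.64% were called and 3.36% were higher. Of 20 tested G1/S genes 3 were higher, CCNE2 (1.37), CDC25A (1.32) and E2F2 (0.80), and CDKN1C (-1.09) was lower, with a median of 0.36. The complex III list had 0 of 13 called. In the window, 0 of the 9 tested genes other than LINC00662 were called in HCT116. With CBX7 in HEK293T 1 of 12 (8.33%) was called, namely VSTM2B, beside 7.66% of all tested genes.

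**Figure D4:**
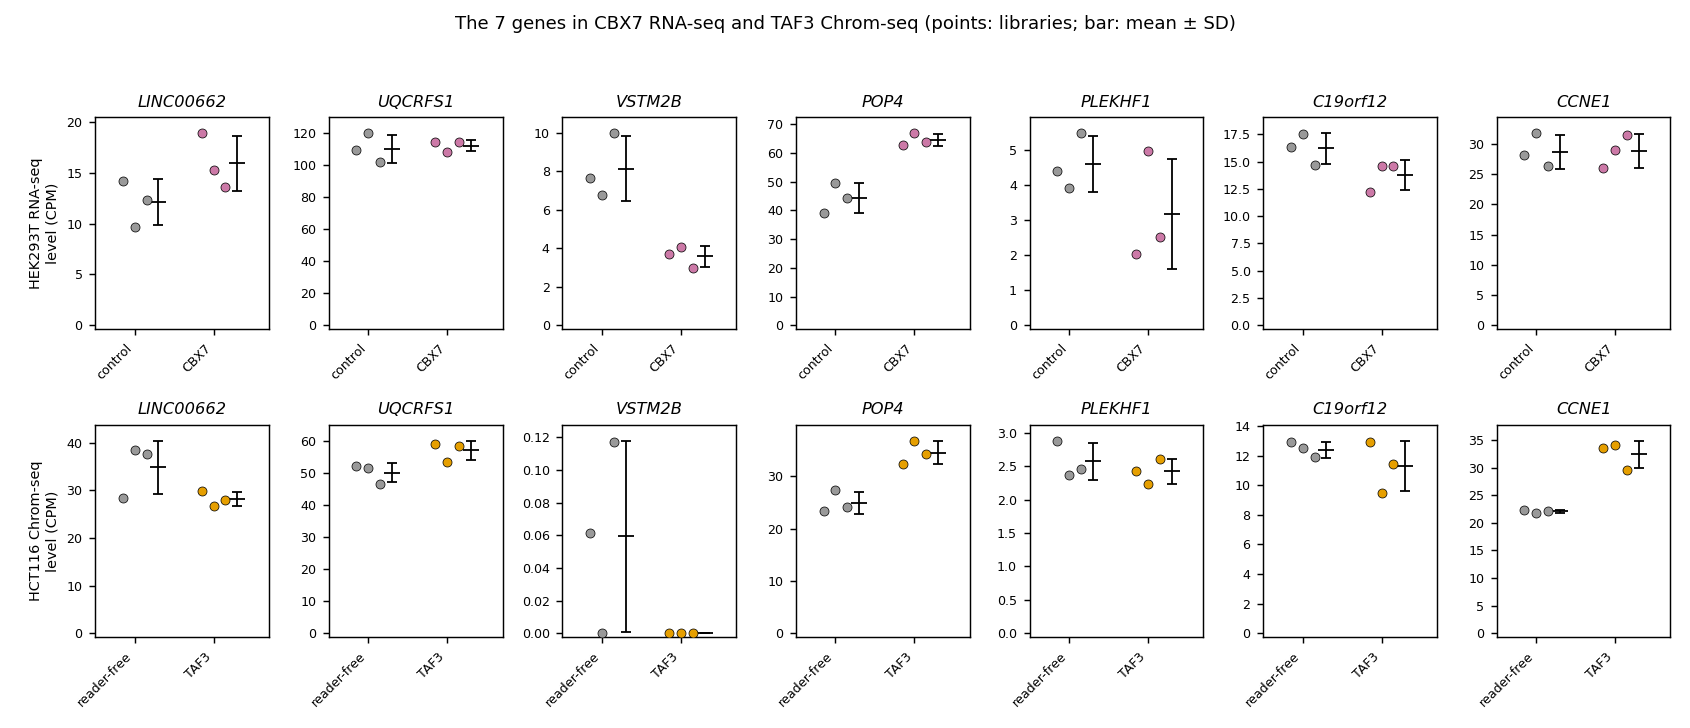
Level in CPM (y axis, own scale for each gene) of the 7 genes in HEK293T RNA-seq of the control and CBX7 groups (upper panels) and in HCT116 Chrom-seq of the reader-free and TAF3 groups (lower panels); points are libraries and bars the mean ± SD (n = 3 each). VSTM2B is lower with CBX7 and nearly at 0 in HCT116, POP4 is higher with either reader than in its control, and CCNE1 is higher with TAF3 at 29.6 to 34.1 CPM.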

How the data were processed

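The authors deposited unnormalized whole read counts for each gene. Per the submitters' processing notes, reads were trimmed with fastp 0.23.1, aligned with HISAT2 2.1.0 to hg19 and counted with featureCounts 2.0.1. In the tables the length of all 57820 genes equals end minus start plus 1, so intronic reads may have been counted, and levels were not compared between genes. Whether counting used strand is not given in the sources used here, so overlapping and antisense genes are uncertain.

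The groups of a comparison alone entered its fit, which ran over all genes with summed counts above 3 per library, in edgeR 4.0.16 (R 4.3.3, quasi-likelihood, TMM, Benjamini-Hochberg adjustment). Calls needed an adjusted p below 0.05 and 0.75 or more on the log2 scale in either direction. The F statistic and fold change gave the standard error. Tables were normalized separately.

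The members, lists and tests were chosen with earlier results of these data known. The text names the members, overlapping genes and UQCRFS1P1, genes called within 3 Mb, up to 4 called genes per list, and the 3 nearest profiles. UQCR11, RPP14 and RBL1 were left out because 2 gene IDs carry each symbol.

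Alternatives were DESeq2 1.42.0, its size factors, library totals, no filter, filterByExpr, a replicate block, a joint fit of the ASO groups, and omission of each library in turn. Contrasts of the LINC00662 ASO with each other targeting ASO were added after seeing the data. Replicate numbers were taken to pair groups whose same-numbered libraries had deviations correlated above 0.1 in all 3 pairs. These were CBX7 with its control (0.19, 0.35 and 0.14) and the LINC00662 with the SETD5-AS1 ASO (0.16, 0.19 and 0.11). Of 22 replicate pairs none was a copy (lowest chi-square per gene 2.48). On simulated counts for the LINC00662 ASO against the control ASO, 200 genes were changed by 1.5 on the log2 scale. Of these 200, 196 were recovered, with 0 false calls among 18562 genes. Over the other 5 comparisons 193 to 196 were recovered, with 2 to 7 false calls. Recovery and false calls were not tested with as many changed genes as the 4625 called for the LINC00662 ASO against the control ASO. The HEK293T Chrom-seq table was not analysed here, and 1 ASO and 1 marker are not reported here. Figures were drawn with matplotlib 3.10.9.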

Additional observations from a re-analysis of the deposited data

How the results depend on the processing

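The number of genes called stayed within 1.5 times the reported number in all 80 alternatives. Leaving out each library gave 4359 to 4508 called genes for the LINC00662 ASO, 4156 to 4477 for the SETD5-AS1 ASO and 3795 to 4073 for the LINC00641 ASO against the control ASO, 1507 to 1762 for the LINC00662 ASO against the other targeting ASOs, 1109 to 1607 for CBX7 and 1064 to 1225 for TAF3 in HCT116. By adjusted p alone, the members that passed numbered 4, 3, 3, 4, 2 and 4 in the same order. With library totals as the only scaling, the calls with the SETD5-AS1 ASO split into 3195 higher and 1610 lower (2390 and 2135 as reported), and the all-gene median moved from 0.028 to 0.167.

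Of 548 recomputed fold changes of the 7 genes, 539 stayed on the same side of the call, 7 passed it only under the alternative and 2 no longer passed it. These 2 were VSTM2B with the LINC00662 ASO against the SETD5-AS1 ASO alone, at 0.252 without and 0.253 with the replicate block. LINC00662 with its own ASO ranged from -3.20 to -2.85, and VSTM2B from 2.11 to 2.44. Of 818 values of other named genes, 33 no longer passed and 1 changed sign: SETD5-AS1, higher with the LINC00662 ASO than with the other targeting ASOs, was at -0.059 against the LINC00641 ASO alone, a contrast without the libraries of its own ASO.

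The replicate block gave 4506, 4370, 3789, 1703, 1433 and 1204 called genes in the order above. For UQCRFS1 the block moved the LINC00662 ASO value to 0.76 (edgeR adjusted p = 8e-04), a call. It changed no other call of a member. Apart from CBX7 with its control and the LINC00662 with the SETD5-AS1 ASO, the groups share only a number, since in none of them did every pair correlate above 0.1. Comparisons planned for HEK293T Chrom-seq were not run. VSTM2B in HCT116 and most genes of the window had too few reads to be tested.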
